A study of Mus musculus with 4 samples.

Results

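The collagen genes were taken as every gene of the deposited table whose symbol is Col, a number, the letter a and a number, such as Col1a1. The rule found 44 of the 22863 genes listed, and 43 of them had values high enough to be tested (10 or more in 2 or more samples, which 17784 of all genes had). They were grouped by the kind of molecule they build, as 11 fibrillar, 6 basement membrane, 9 fibril-associated (FACIT, fibril-associated collagens with interrupted triple helices) and 18 other collagens. The values came from RNA-seq of 4 samples of eyes of C3H/f+/+ mice, a melatonin-proficient line that lacks the Pde6b mutation of other C3H mice, with 2 samples from subjective day (SD) and 2 from objective day (OD). The SD mice were taken at circadian time 6 after 18 hours of darkness according to the Methods, although another passage of the study gives a longer darkness. The OD mice were taken at the same clock hour of a light-dark cycle, Zeitgeber time 6, after dark adaptation for 1 hour. Both conditions were of the same strain and age-matched. The age of these mice was not given in the sources used here. Each sample was a pool of 4 eyes from a female and a male, dissected to the retina, retinal pigment epithelium (RPE), choroid and posterior sclera. A comparison of SD with OD therefore spans the time in darkness, light history and any circadian difference at once, and these cannot be told apart.

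Collagens are secreted proteins whose chains wind around each other in a long helix. Fibrillar collagens, led by type I, give the sclera its strength, and type II with types V/XI, and type IX of the FACIT group, make up the fibrils of the vitreous. Type IV collagen is a network former that gives every basement membrane its scaffold, among them Bruch's membrane under the RPE, the inner limiting membrane of the retina and the walls of choroidal and retinal vessels. The table lists bulk tissue, so the sclera, choroid, retina, vascular walls and any attached tissue contribute to each value together, and for every gene below a smaller number of cells and less RNA per cell cannot be told apart. Markers of the connective tissue and vessels were present, since all 5 fibroblast, all 5 endothelial and all 5 pericyte and smooth muscle genes on the lists used here passed the filter. No value assigns a collagen to the sclera or to the choroid.

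The deposited table does not name the unit of its values. They are fractional and their totals are nearly equal, as counts scaled to a shared library size would be, and they are called adjusted counts here on that reading, which no source states. Their totals lay between 33278417 and 35236783 per sample, which cannot be read as the depth, so the depth is unknown. Fold changes are OD over SD on the scale of log2(adjusted count + 1), which understates changes of low genes, and a gene was called when limma's test gave a Benjamini-Hochberg adjusted p under 0.05 over all genes tested. In this fit 1.06% of all genes tested were called higher in OD and 7.45% were called lower. The fold change of all genes followed the GC content of their transcripts (Spearman 0.583 across 17536 genes, which share libraries and are not independent replicates). Collagen transcripts are GC-rich, with a median of 55.2% (range 45.9% to 62.9%) against 49.8% for all genes tested. Values with each sample's GC trend removed are therefore given beside the results that they change.

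Of the 43 collagen genes tested, 4 were higher and 1 was lower in OD. The higher genes were Col4a1, Col4a2 and Col4a3 of the basement membrane group and Col18a1, and the lower gene was Col17a1. The median log2 fold change was 0.10 over the collagens and 0.01 over all genes, and 28 collagens had a positive and 15 a negative fold change. Both OD samples lay above both SD samples for 14 collagens, against 27.9% of all genes tested, and below them for 6 collagens, against 28.2% of all genes. With the GC trend removed, the median of the collagens was -0.01 and 21 were positive, and Col4a1 and Col4a2 were called higher and Col2a1 lower, where 0.57% of all genes were called higher and 0.633% lower.

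**Figure D1:**
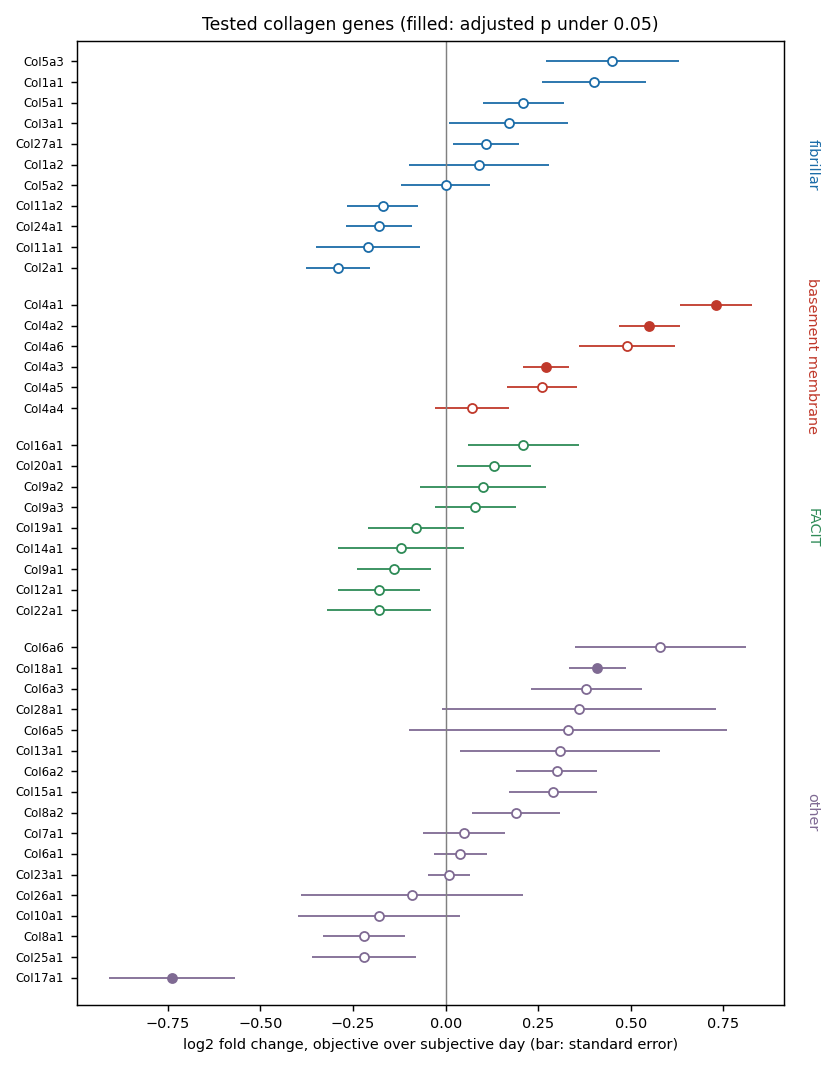
Log2 fold change of each tested collagen gene in OD over SD (x axis, log2 scale) with its standard error, by group and ordered within the group, with n = 2 samples per condition. Filled points passed limma's test; the 6 basement membrane genes all lie to the right of 0, while the other groups lie on both sides.

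The chains Col4a1 and Col4a2 assemble into the type IV collagen found in nearly all basement membranes. Their genes stand head to head on mouse chromosome 8 of GRCm38, Col4a1 on the minus strand (chr8:11198423-11312826) and Col4a2 on the plus strand (chr8:11312805-11449287), and their first exons share 22 bases. The RefSeq promoter windows, from 250 bases before to 50 after the start site (GRCm38.p6), are shown because the genes are read outward from nearly the same place. Their start sites are 21 bases apart and the windows share 78 bases. Capitals mark the core of the CCAAT box, searched as these letters. They also mark a GC box, searched as GGGCGG. The last motif marked is the TATA box, searched as TATAAA. Each was searched on both strands, so that some stand in their reverse form, and no motif overlaps another in these windows.
Col4a1, chr8:11312777-11313076, minus strand: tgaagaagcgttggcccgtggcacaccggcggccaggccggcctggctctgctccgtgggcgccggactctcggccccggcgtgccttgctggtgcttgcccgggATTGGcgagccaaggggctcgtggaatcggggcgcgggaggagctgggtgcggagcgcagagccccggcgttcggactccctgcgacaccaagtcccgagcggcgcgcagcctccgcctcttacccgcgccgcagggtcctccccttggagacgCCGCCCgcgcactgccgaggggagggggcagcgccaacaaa
Col4a2, chr8:11312555-11312854, plus strand: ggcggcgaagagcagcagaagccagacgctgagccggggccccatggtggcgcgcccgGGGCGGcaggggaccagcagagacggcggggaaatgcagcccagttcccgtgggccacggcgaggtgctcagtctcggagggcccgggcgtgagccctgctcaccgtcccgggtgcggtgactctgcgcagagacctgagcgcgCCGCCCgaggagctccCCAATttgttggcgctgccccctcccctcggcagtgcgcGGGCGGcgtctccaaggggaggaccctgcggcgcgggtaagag
The windows of Col18a1 and Col17a1 are shown for the other called genes that have an entry in the table, Col18a1 by the first of its windows.
Col18a1, chr10:77166481-77166780, minus strand: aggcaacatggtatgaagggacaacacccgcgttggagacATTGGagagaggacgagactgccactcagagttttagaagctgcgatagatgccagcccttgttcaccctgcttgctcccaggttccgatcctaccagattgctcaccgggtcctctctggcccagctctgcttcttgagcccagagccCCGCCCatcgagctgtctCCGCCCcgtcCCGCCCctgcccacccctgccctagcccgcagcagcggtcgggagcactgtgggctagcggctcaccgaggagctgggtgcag
Col17a1, chr19:47691993-47692292, minus strand: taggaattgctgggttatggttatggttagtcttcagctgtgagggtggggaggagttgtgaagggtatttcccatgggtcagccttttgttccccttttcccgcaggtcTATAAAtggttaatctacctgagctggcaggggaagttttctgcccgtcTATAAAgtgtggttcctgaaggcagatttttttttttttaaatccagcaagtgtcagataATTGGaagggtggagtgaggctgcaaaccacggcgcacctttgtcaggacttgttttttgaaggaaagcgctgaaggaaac
The Col4a1 window holds 1 CCAAT and 1 GGGCGG and that of Col4a2 holds 1 CCAAT and 3 GGGCGG. Both windows lack TATAAA. The GGGCGG of the Col4a1 window and the last GGGCGG of the Col4a2 window are the same site, within the 78 shared bases. The Col18a1 window shown holds 1 CCAAT and 3 GGGCGG, and its second window (chr10:77113656-77113955) holds 0 of each motif. The Col17a1 window holds 1 CCAAT, 2 TATAAA and 0 GGGCGG. Over 38 windows of 35 collagen genes, GGGCGG was in 60.5%, CCAAT in 34.2% and TATAAA in 13.2%, and the shares over 32851 windows of all genes were 35.7%, 37.4% and 13.6%. A match of letters is a description and not a binding site.

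In the basement membrane group all 6 genes had a positive fold change, 3 were called and the OD samples of 5 lay above both SD samples. Of all genes tested, 1.06% were called higher and 27.9% had both OD samples above both SD samples. The median log2 fold change of the group was 0.38, and 0.32 with the GC trend removed, when all 6 remained positive. The summed level of the group per kilobase of transcript was 896 and 817 in the SD samples and 1267 and 1142 in the OD samples. This was 11.3% and 12.4% of the summed level of all collagens in SD and 15.4% and 14.8% in OD.

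For Col4a1 the adjusted counts were 1738 and 1483 in SD and 2839 and 2495 in OD. Both OD samples were well above both SD samples, by more than the samples of a condition differed. The rise was 1.66-fold (log2 fold change 0.73, standard error 0.097, limma adjusted p = 0.00697), the largest among the collagens tested. For Col4a2 the adjusted counts were 1767 and 1589 in SD and 2594 and 2318 in OD. The order of the 4 samples was the same as for Col4a1. The rise of Col4a2 was 1.46-fold (log2 fold change 0.55, standard error 0.083, limma adjusted p = 0.00987). With the GC trend removed, Col4a1 kept a log2 fold change of 0.62 (limma adjusted p = 0.0265) and Col4a2 of 0.41 (limma adjusted p = 0.0427). Both stayed past the threshold with any sample left out and lost it with a variance prior common to all genes (limma adjusted p = 0.131 and 0.136), under which no gene of the table was called and 3586 had an unadjusted p under 0.05.

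The ratio of Col4a1 to Col4a2, each per kilobase, was 0.959 and 0.91 in SD and 1.07 and 1.05 in OD, so that the chains were at nearly equal levels in every sample. The ratio was higher in both OD samples (log2 difference 0.18, two-sided exact permutation test p = 0.33, the smallest that 2 against 2 samples allow).

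Col4a3, Col4a4 and Col4a5 form the type IV network of specialised membranes such as that of the kidney glomerulus. For Col4a3 the adjusted counts were 1860 and 1802 in SD and 2258 and 2159 in OD. The conditions did not overlap and the difference was several times that between samples of a condition. Col4a3 rose 1.21-fold (log2 fold change 0.27, standard error 0.062, limma adjusted p = 0.0407). The gene lies on the plus strand at chr1:82586921-82722059 and shares 563 exonic bases with C430014B12Rik on the opposite strand. The strand setting of the counting was not stated, so reads of the pair cannot be told apart. Its call was lost with the GC trend removed (0.24, limma adjusted p = 0.155) and without SD sample 2, OD sample 1 or OD sample 2 (limma adjusted p = 0.0816, 0.311 and 0.156).

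Col4a4, which stands head to head with Col4a3, had adjusted counts of 648 and 582 in SD and 699 and 596 in OD. Its conditions overlapped and the log2 fold change was 0.07 (standard error 0.10, limma adjusted p = 0.715). The ratio of Col4a3 to Col4a4 per kilobase was 3.39 and 3.65 in SD and 3.82 and 4.27 in OD (log2 difference 0.20, exact permutation p = 0.33). Unlike the pair of Col4a1 and Col4a2, these chains were at unequal levels in every sample.

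The pair on chromosome X, Col4a5 and Col4a6, had lower values. Col4a5 was at 348 and 358 in SD and at 438 and 407 in OD (log2 fold change 0.26, limma adjusted p = 0.145). Col4a6, a chain of smooth muscle and epithelial membranes, was at 162 and 153 in SD and at 234 and 211 in OD. For both genes the OD samples were above the SD samples. The log2 fold change of Col4a6 was 0.49 (standard error 0.13, limma adjusted p = 0.0587). It passed the threshold with upper-quartile scaling (0.52, limma adjusted p = 0.0468) but not with the GC trend removed (0.41, limma adjusted p = 0.207), and without single samples its limma adjusted p was between 0.05 and 0.364. The ratio of Col4a5 to Col4a6 per kilobase was 2.18 and 2.37 in SD and 1.9 and 1.96 in OD (log2 difference -0.24, exact permutation p = 0.33).

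**Figure D2:**
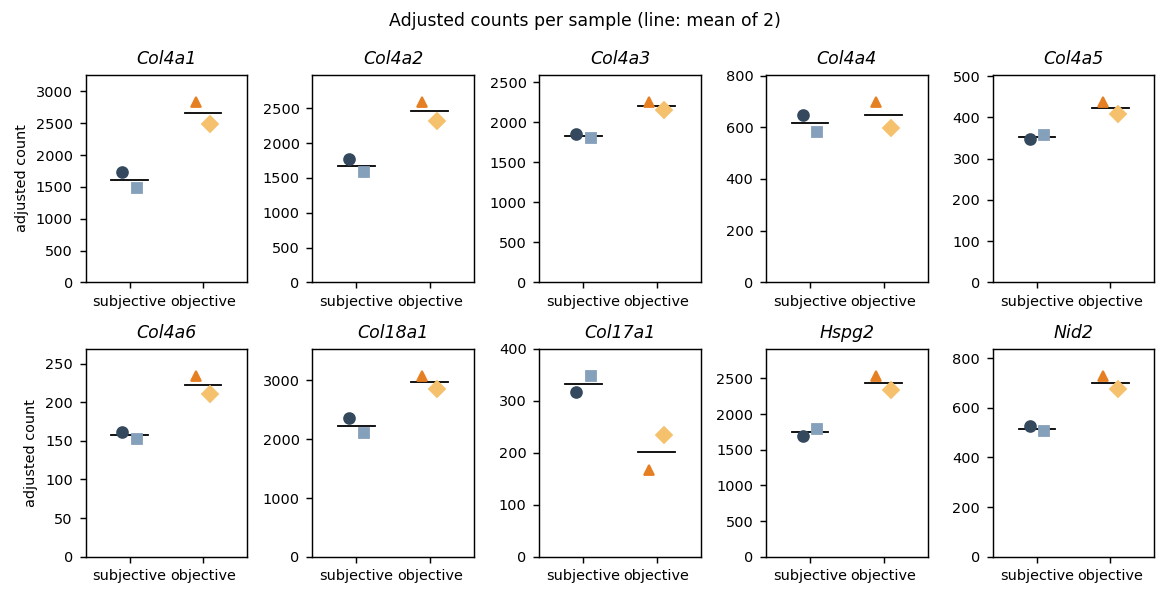
Adjusted counts (y axis, linear and starting at 0) of the 6 type IV chains, Col18a1, Col17a1 and the perlecan and nidogen genes Hspg2 and Nid2, with SD samples on the left (circle for sample 1, square for sample 2), OD samples on the right (triangle for sample 1, diamond for sample 2) and a line at the mean of 2 samples. The conditions overlap only for Col4a4 among the 10 genes, and Col17a1 is the only gene that is lower in OD.

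Collagen XVIII, the source of the anti-angiogenic fragment endostatin, is a heparan sulphate proteoglycan of basement membranes and of Bruch's membrane. For Col18a1 (chr10:77052178-77166548, minus strand) the adjusted counts were 2360 and 2102 in SD and 3077 and 2862 in OD. The conditions did not overlap. Col18a1 rose 1.33-fold (log2 fold change 0.41, standard error 0.077, limma adjusted p = 0.0199), and the call was lost with the GC trend removed (0.28, limma adjusted p = 0.106) and without OD sample 1 (limma adjusted p = 0.106). Its relative Col15a1, also of basement membrane zones, was at 307 and 260 in SD and 331 and 361 in OD, without passing the test (log2 fold change 0.29, limma adjusted p = 0.186).

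Of 15 genes for the other basement membrane components, 2 were called, both higher, with a median log2 fold change of 0.09. Hspg2 encodes perlecan, a large heparan sulphate proteoglycan that binds type IV collagen. Its adjusted counts were 1694 and 1794 in SD and 2533 and 2340 in OD, a 1.40-fold rise (log2 fold change 0.48, limma adjusted p = 0.00842). Nid2 encodes a nidogen, a linker between laminin and type IV networks. Its adjusted counts were 526 and 506 in SD and 728 and 674 in OD, a 1.36-fold rise (log2 fold change 0.44, limma adjusted p = 0.0216). For both genes the OD samples lay above the SD samples by more than the samples of a condition differed. With the GC trend removed the adjusted p was 0.0845 for Hspg2 and 0.117 for Nid2 by limma, with both log2 fold changes at 0.35. The call of Nid2 was also lost without OD sample 1 or OD sample 2 (limma adjusted p = 0.163 and 0.0659). The 11 laminin chains on the list did not pass, with log2 fold changes between -0.92 (Lamb3) and 0.21 (Lamb2). Agrn, the proteoglycan with the highest value on the list, was at 3100 and 3273 in SD and at 3171 and 3425 in OD (log2 fold change 0.05, limma adjusted p = 0.695).

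Cells that lay down vascular basement membrane were followed by their markers. Of 5 endothelial markers 0 were called (1 with an unadjusted p under 0.05, limma), and their summed adjusted counts were 13900 and 13846 in SD and 13105 and 12849 in OD, mostly Kdr (log2 fold change -0.14). The median log2 fold change of the 5 was 0.12, with Tie1, the marker with an unadjusted p under 0.05, at 0.29 (limma adjusted p = 0.125), Cdh5 at 0.19 and Pecam1 at 0.12. Of 5 pericyte and smooth muscle markers 0 were called (2 with an unadjusted p under 0.05, limma). In 4 of them both OD samples lay above both SD samples, as in 27.9% of all genes tested. The median log2 fold change of these 5 markers was 0.14. Their sums, mostly Rgs5, were 8200 and 7615 in SD and 8466 and 7641 in OD. Within that list Rgs5, which had the highest values, was at 4787 and 4343 in SD and at 4276 and 3899 in OD (log2 fold change -0.16, limma adjusted p = 0.239). The smooth muscle genes Myh11 (log2 fold change 0.40, limma adjusted p = 0.0601) and Acta2 (0.29, limma adjusted p = 0.0961) had OD values above the SD values, as did Pdgfrb (0.14, limma adjusted p = 0.259) and Cspg4 (0.12, limma adjusted p = 0.518). With the GC trend removed, Rgs5 changed sign to a log2 fold change of 0.19 (limma adjusted p = 0.431) and Cspg4 to -0.01. The median of the pericyte and smooth muscle list was then 0.19. None of the endothelial, pericyte and smooth muscle markers had a value of 0. Their part in the values of the basement membrane genes was not tested.

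Collagen XVII spans the membrane of basal epithelial cells and belongs to the hemidesmosome, which fixes skin and ocular surface epithelium to its basement membrane. For Col17a1 (chr19:47646344-47692094, minus strand) the adjusted counts were 317 and 348 in SD and 167 and 235 in OD. Both OD samples were below both SD samples, and OD sample 1 was the lowest. Col17a1 fell by 40.2% (log2 fold change -0.74, standard error 0.17, limma adjusted p = 0.0399). The call was lost with the GC trend removed (-0.85, limma adjusted p = 0.068), with upper-quartile scaling (limma adjusted p = 0.0509) and without SD sample 2 or OD sample 1 (limma adjusted p = 0.0694 and 0.146).

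Markers of the ocular surface moved with Col17a1. The 4 that could be tested, Krt5, Krt14, Krt13 and Aldh3a1, were all called lower, with log2 fold changes from -1.44 to -1.12, and they remained called with the GC trend removed. Krt12, the keratin that defines corneal epithelium, was at 12.5 or less in each sample. The summed value of the list was 6424 and 6297 in SD and 1977 and 3175 in OD, with OD sample 1 the lowest as for Col17a1. The tissue was dissected to the posterior eye, and the part of surface epithelium in the value of Col17a1 was not tested. Collagen VII, which anchors epithelium to the tissue beneath, had adjusted counts of 536 and 455 in SD and 545 and 481 in OD for Col7a1 (log2 fold change 0.05, limma adjusted p = 0.816). Lamb3, the laminin chain bound by hemidesmosomes, was at 55.9 and 60.9 in SD and at 23.5 and 39.3 in OD (log2 fold change -0.92, limma adjusted p = 0.106).

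Among the 11 fibrillar collagens 0 were called (3 with an unadjusted p under 0.05, limma). The OD samples lay above the SD samples for 3 of them and below for 3, against 27.9% and 28.2% of all genes tested. The median log2 fold change was 0.09, and -0.01 with the GC trend removed. Their summed level per kilobase was 2266 and 1664 in SD and 2189 and 2034 in OD, so the SD samples lay on both sides of the OD samples. All 11 were higher in SD sample 1 than in SD sample 2.

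The type I chains had the highest fibrillar values. Col1a1 (chr11:94936224-94953042, plus strand) was at 2734 and 1998 in SD and at 3334 and 2853 in OD. The log2 fold change of Col1a1 was 0.40 (standard error 0.14, limma adjusted p = 0.137), with the upper SD sample close to the lower OD sample. Col1a2 was at 3917 and 2483 in SD and at 3504 and 3153 in OD, with both OD samples between the SD samples (log2 fold change 0.09, limma adjusted p = 0.797). Type I collagen takes more of the Col1a1 chain than of the Col1a2 chain in the assembled molecule. The ratio of Col1a1 to Col1a2 transcripts per kilobase was below 1 in every sample, at 0.63 and 0.726 in SD and 0.858 and 0.816 in OD (log2 difference 0.31, exact permutation p = 0.33). The size of this ratio depends on the length used, that of the longest transcript, and was not corrected for GC content. It is therefore no measure of the balance of chains. Type III collagen accompanies type I in distensible tissues. Its gene Col3a1 was at 2322 and 1569 in SD and at 2086 and 2212 in OD (log2 fold change 0.17, limma adjusted p = 0.553), and it shares 141 exonic bases with Gm47302 on the same strand.

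Type V collagen sets the diameter of type I fibrils. Col5a1 was at 571 and 468 in SD and at 604 and 597 in OD (log2 fold change 0.21, limma adjusted p = 0.267). Col5a2 was at 377 and 307 in SD and at 344 and 337 in OD, with the OD samples between the SD samples (log2 fold change 0.00, limma adjusted p = 0.996). The ratio of Col5a1 to Col5a2 per kilobase was 1.19 and 1.2 in SD and 1.38 and 1.4 in OD (log2 difference 0.22, exact permutation p = 0.33). Col5a3 had the largest fibrillar fold change, at 114 and 97.7 in SD and 165 and 126 in OD, but OD sample 1 stood well above OD sample 2 (log2 fold change 0.45, standard error 0.18, limma adjusted p = 0.183).

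None of the remaining fibrillar genes was called with all samples. Col2a1, the main collagen of the vitreous (chr15:97975602-98004695, minus strand), was at 1154 and 1044 in SD and at 943 and 850 in OD. Its conditions did not overlap. The log2 fold change of Col2a1 was -0.29 (standard error 0.086, limma adjusted p = 0.0825), and with the GC trend removed it was called lower at -0.44 (limma adjusted p = 0.0403). Its transcript has a GC content of 62.2%, among the highest of the collagens. The chains Col11a1 and Col11a2 did not pass the test. Col11a1 was at 289 and 246 in SD and at 250 and 211 in OD (log2 fold change -0.21, limma adjusted p = 0.377). Col11a2 was at 442 and 408 in SD and at 386 and 369 in OD (log2 fold change -0.17, limma adjusted p = 0.313). The ratio of Col11a1 to Col11a2 per kilobase was 0.515 and 0.477 in SD and 0.511 and 0.452 in OD (exact permutation p = 0.667), so their values overlapped. Col24a1 had its OD samples below its SD samples (log2 fold change -0.18, limma adjusted p = 0.25), and Col27a1 did not (0.11, limma adjusted p = 0.499). Of the cartilage and bone markers only Acan, Chad and Cnmd were listed, and none of the 3 was called. Cnmd, the marker with an unadjusted p under 0.05, was at 290 and 303 in SD and at 221 and 227 in OD (log2 fold change -0.40, limma adjusted p = 0.0634), with both OD samples below both SD samples as for Col2a1 and Col11a2. Chad and Acan did not fall. Chad was at 251 and 188 in SD and at 288 and 219 in OD (log2 fold change 0.21, limma adjusted p = 0.53). Acan had low values and a log2 fold change of 0.01 (limma adjusted p = 0.988). The part of cartilage in the values of Col2a1 and Col11a2 was not tested.

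**Figure D3:**
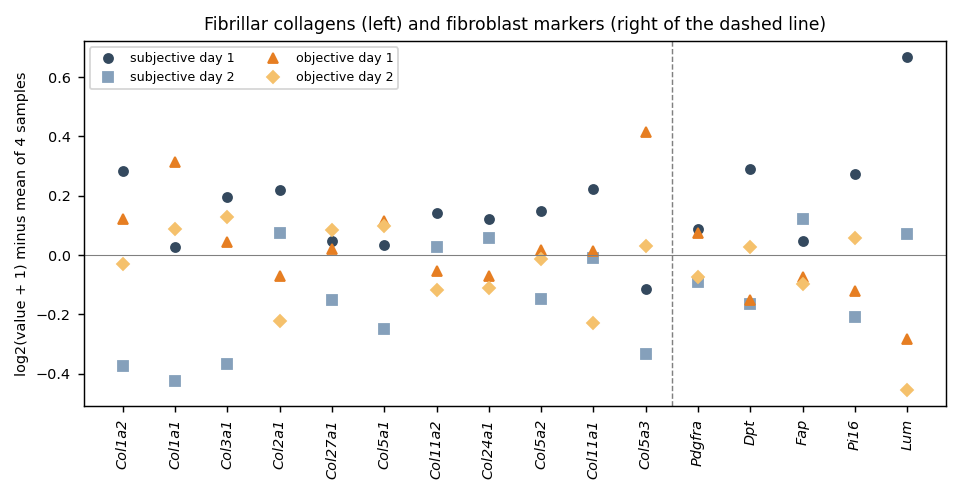
Deviation of log2(adjusted count + 1) in each sample from the mean of the 4 samples (y axis, log2 units), for the 11 fibrillar collagens ordered by level and, right of the dashed line, 5 fibroblast markers. Circles and squares are SD samples 1 and 2, triangles and diamonds are OD samples 1 and 2; the SD sample 1 point lies above the SD sample 2 point for all 11 collagens.

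The number of collagens that passed the test changed with the sample left out, and so did the number over all genes. SD sample 1 was above SD sample 2 in 35 of the 43 collagens tested, with a median log2 difference of 0.22, against a median of 0.02 over all genes. The fibroblast markers differed in the same way in 4 of 5 genes (median log2 difference 0.45), and the OD samples differed less (OD sample 1 above OD sample 2 in 30 of 43 collagens, median 0.07). The lens had been removed, but lens markers also differed between samples of a condition, with summed adjusted counts of 32713 and 4359 in SD samples 1 and 2 and of 39978 and 10666 in OD samples 1 and 2. The part of lens or fibroblast content in the collagen values was not tested. Without SD sample 1, 11 collagens were called higher and 1 lower, and Col1a1, Col1a2, Col3a1, Col5a1, Col6a2, Col6a3 and Col8a2 joined the 5 genes called with all samples. In that fit 4.87% of all genes were called higher and 9.51% lower. Without SD sample 2, 3 were called higher (Col4a1, Col4a2 and Col18a1) and 4 lower (Col2a1, Col8a1, Col12a1 and Col14a1), with 1.02% of all genes called higher and 6.22% lower. The median log2 fold change of the fibrillar genes was 0.21 without SD sample 1 and -0.15 without SD sample 2. That of the basement membrane genes was 0.41 and 0.37. Without OD sample 1 the calls were Col4a1 and Col4a2 alone, with 0.202% of all genes called higher and 3.94% lower. Without OD sample 2 they were Col4a1, Col4a2, Col18a1 and Col17a1, with 0.337% of all genes called higher and 3.4% lower.

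Of the 5 fibroblast markers only Lum was called, lower in OD, with 993 and 657 in SD and 513 and 456 in OD (log2 fold change -0.74, limma adjusted p = 0.0477). The call was lost with the GC trend removed (-0.44, limma adjusted p = 0.371), without OD sample 2 (limma adjusted p = 0.115) and with a filter at a mean of 50 (limma adjusted p = 0.051). Lum encodes lumican, a small proteoglycan that binds collagen fibrils and is abundant in cornea and sclera. The summed value of the list was 4263 and 3297 in SD and 3235 and 3302 in OD. Neither set of samples was wholly above the other.

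FACIT collagens sit on the surface of fibrils. Of the 9 genes 0 were called (0 with an unadjusted p under 0.05, limma), with limma adjusted p between 0.33 and 0.77 and a median log2 fold change of -0.08. Type IX collagen coats the fibrils of the vitreous. Col9a3 had the highest level per kilobase of the group and was at 1594 and 1269 in SD and at 1585 and 1419 in OD, but it shares 234 exonic bases with Tcfl5 on the opposite strand. Col9a1 was at 938 and 767 in SD and at 769 and 770 in OD. Col9a2 was at 261 and 200 in SD and at 273 and 218 in OD. In all 3 genes the samples of the conditions overlapped. The ratio of Col9a1 to Col9a2 per kilobase was 2.74 and 2.92 in SD and 2.14 and 2.69 in OD (log2 difference -0.24, exact permutation p = 0.33). The ratio of Col9a2 to Col9a3 was 0.171 and 0.165 in SD and 0.18 and 0.161 in OD (exact permutation p = 1.0).

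Col20a1 was at 694 and 817 in SD and at 778 and 869 in OD (log2 fold change 0.13, limma adjusted p = 0.489). Col16a1 had the most positive fold change of the FACIT group, at 282 and 216 in SD and 280 and 293 in OD (log2 fold change 0.21, limma adjusted p = 0.403). Col22a1 and Col12a1 had the most negative, both at -0.18. Col22a1, a collagen of tissue junctions, was at 163 and 174 in SD and at 138 and 161 in OD. It was the only FACIT gene whose conditions did not overlap. Col12a1, which links fibrils in tendon and sclera, was at 1170 and 942 in SD and at 944 and 907 in OD. Col14a1 and Col19a1 had log2 fold changes of -0.12 and -0.08.

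The remaining collagens include the beaded filaments of type VI, the hexagonal networks of type VIII and the transmembrane collagens. Col6a1 was at 2271 and 2124 in SD and at 2153 and 2354 in OD (log2 fold change 0.04, limma adjusted p = 0.795). Its partner Col6a2 was at 923 and 728 in SD and at 1030 and 987 in OD (log2 fold change 0.30, limma adjusted p = 0.154). The OD samples of Col6a2 lay above both SD samples and those of Col6a1 did not. The ratio of Col6a1 to Col6a2 per kilobase was 2.95 and 3.49 in SD and 2.5 and 2.86 in OD (log2 difference -0.26, exact permutation p = 0.33). Col6a3 was at 351 and 281 in SD and at 458 and 367 in OD (log2 fold change 0.38, limma adjusted p = 0.166). Col6a6 had the largest positive fold change among the other collagens but low values, 34.9 and 43 in SD and 61.5 and 55.4 in OD (log2 fold change 0.58, standard error 0.23, limma adjusted p = 0.172). Col6a5 lay between 16 and 39.9, with both extremes in SD. Col6a4 was not tested, with values of 5.99, 7.72, 12.4 and 2.78 in SD samples 1 and 2 and OD samples 1 and 2.

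Type VIII collagen is the network of Descemet's membrane in the cornea and of vessel walls and is found in choroid. Col8a2 had the highest level per kilobase of all 44 collagens and was at 3584 and 2772 in SD and at 3764 and 3421 in OD (log2 fold change 0.19, limma adjusted p = 0.366). Col8a1 was at 3096 and 2572 in SD and at 2609 and 2238 in OD (log2 fold change -0.22, limma adjusted p = 0.242). Both genes overlapped between the conditions, but their ratio did not. The ratio of Col8a1 to Col8a2 per kilobase was 0.733 and 0.787 in SD and 0.588 and 0.555 in OD (log2 difference -0.41, exact permutation p = 0.33). With all samples this was the largest difference among the 10 pairs of chains compared. Without SD sample 2 it was -0.36, against 0.41 for Col1a1 to Col1a2. Without OD sample 2 it was -0.37, against -0.40 for Col9a1 to Col9a2. The transcripts have GC contents of 46.8% (Col8a1) and 59.1% (Col8a2). With the GC trend removed their log2 fold changes were -0.15 and 0.06. Ratios of chains were not recomputed with that trend removed. Over these 10 pairs the exact test could not reach a p under 0.33, so none could pass a threshold before or after adjustment.

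Among the transmembrane collagens Col23a1 was nearly level, at 3174 and 3124 in SD and 3184 and 3148 in OD (log2 fold change 0.01, standard error 0.057, limma adjusted p = 0.949). Col25a1 was at 212 and 195 in SD and at 162 and 188 in OD (log2 fold change -0.22, limma adjusted p = 0.353), with the OD samples below the SD samples. Col13a1 was at 62.9 and 38.1 in SD and at 60.5 and 61.2 in OD. Col10a1, Col26a1 and Col28a1 had means of 61.1 or less in either condition and limma adjusted p of 0.59 or more.

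Levels can be compared between genes only per length of transcript. By adjusted count per kilobase, the mean of the 4 samples was 781 for Col8a2, 610 for Col1a2, 558 for Col23a1, 543 for Col6a1 and 515 for Col8a1, followed by Col9a3, Col18a1, Col1a1 and Col3a1. The ranges over samples of these neighbours overlapped, so their order is not fixed by these data. Col4a1 and Col4a2 followed at 323 and 321 and Col4a3 at 236. The ranges of neighbours in the whole order overlapped except below Col20a1, Col13a1, Col26a1, Col6a6 and Col6a5, and the last gene, Col6a4, was at 0.981.

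**Figure D4:**
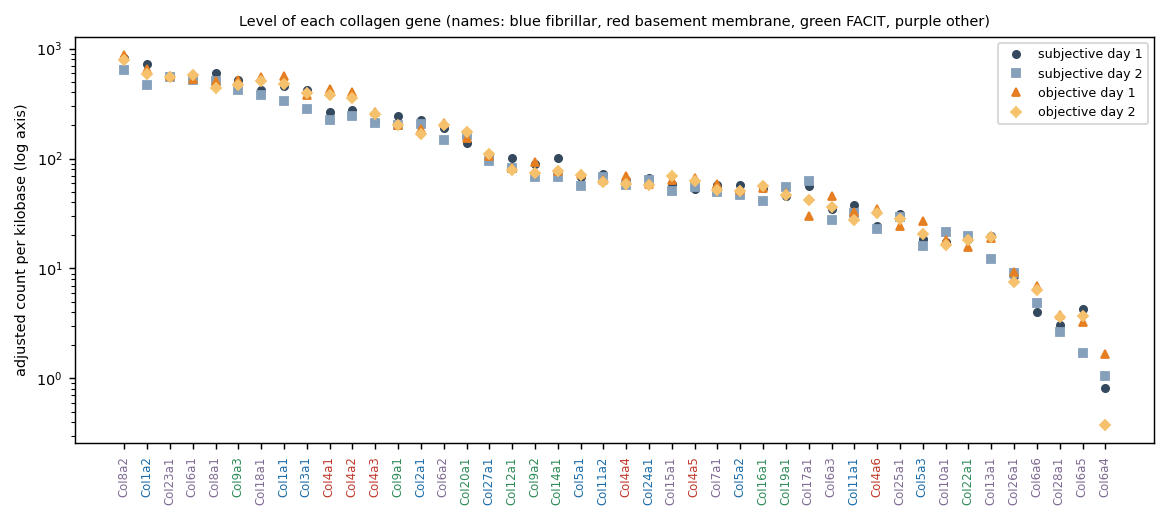
Adjusted count per kilobase of the longest transcript (y axis, log scale) of all 44 collagen genes in each of the 4 samples, ordered by mean level. The points of most neighbours overlap, and Col8a2 at a mean of 781 and Col6a4 at 0.981 mark the ends.

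The genes that process, cross-link, degrade or bind collagen were examined in the same fit. Of 19 genes for modifying and folding chains in the endoplasmic reticulum, 0 were called (4 with an unadjusted p under 0.05, limma), and the median log2 fold change was 0.10. The highest values were those of P4hb, a subunit of prolyl 4-hydroxylase, with 6925 and 5945 in SD and 7047 and 6829 in OD, and of Mia3, which helps to load collagen into vesicles, with 4947 and 4565 in SD and 5202 and 4759 in OD. In both genes the conditions overlapped. The hydroxylysine galactosyltransferase gene Colgalt1 had the smallest adjusted p of the list (log2 fold change 0.23, limma adjusted p = 0.0615).

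Of 13 genes for processing and cross-linking outside the cell 11 were tested and 1 was called. Adamts3, a procollagen N-proteinase, was at 1895 and 1969 in SD and at 2264 and 2422 in OD, a 1.21-fold rise (log2 fold change 0.28, limma adjusted p = 0.0434). Its OD samples lay above both SD samples, and with the GC trend removed its log2 fold change was 0.24 (limma adjusted p = 0.154). The call was also lost without SD sample 1, OD sample 1 or OD sample 2 (limma adjusted p = 0.0568, 0.12 and 0.29). Pcolce, an enhancer of procollagen C-proteinase, was at 1680 and 1338 in SD and at 1861 and 1656 in OD (log2 fold change 0.23, limma adjusted p = 0.26). The lysyl oxidase genes Lox (-0.50) and Loxl4 (0.51) had log2 fold changes of opposite sign and did not pass (limma adjusted p = 0.111 and 0.107).

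Of 10 tested genes for collagen breakdown 0 were called (0 with an unadjusted p under 0.05, limma), with a median log2 fold change of 0.09. The inhibitors Timp3 and Timp2 had the highest values. Timp3, a component of Bruch's membrane, was at 7673 and 6864 in SD and at 7825 and 6705 in OD, and Timp2 was at 6947 and 6274 in SD and at 7201 and 6668 in OD. Mmp3, a stromelysin, was at 335 in SD sample 1 and between 104 and 145 in the other samples.

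Of 8 tested collagen receptors 1 was called, lower in OD, with a median log2 fold change of -0.27. Itgb1, the beta chain shared by the collagen-binding integrins, was at 2566 and 2426 in SD and at 2100 and 2014 in OD. Both OD samples were below both SD samples (log2 fold change -0.28, limma adjusted p = 0.0396). The median GC content of the list was 45.0%, below that of all genes, and Itgb1 had a log2 fold change of -0.14 once the GC trend was removed (limma adjusted p = 0.459). The call was also lost without SD sample 1, OD sample 1 or OD sample 2 (limma adjusted p = 0.0589, 0.147 and 0.25). Ddr1, a receptor tyrosine kinase for collagen with the highest value of the list, was at 3814 and 3410 in SD and at 3947 and 3862 in OD (log2 fold change 0.11, limma adjusted p = 0.359).

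**Figure D5:**
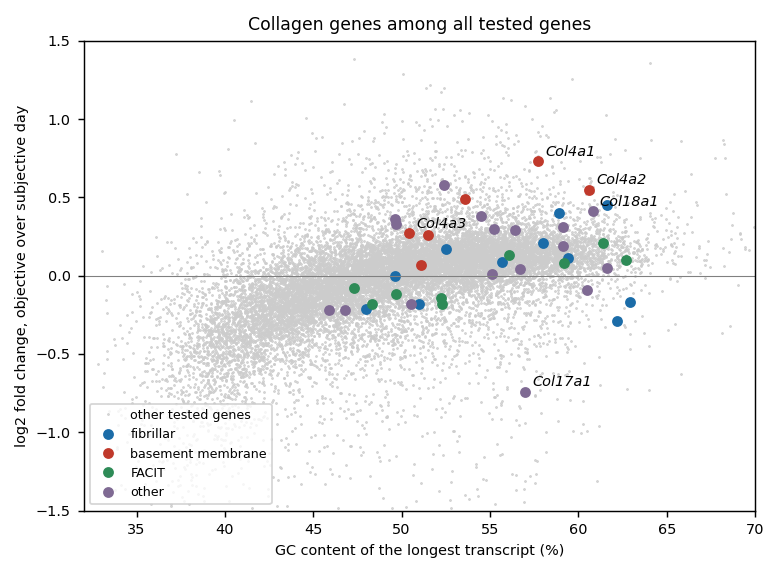
Log2 fold change in OD over SD (y axis) against the GC content of the longest transcript in percent (x axis), with all tested genes in grey and collagens coloured by group; 132 of 17536 genes fall outside the axes. The grey cloud rises with GC content. Col4a1 and Col4a2 lie above and Col17a1 lies below its trend (log2 fold changes of 0.62, 0.41 and -0.85 with the GC trend removed).

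Across the 43 collagens the Spearman correlation of fold change with GC content was 0.285 over genes of the same 4 libraries. It is given as a description and not set against that of all genes, whose GC content spans 30.0% to 74.7%. The calls that changed with the GC trend removed were those of Col4a3, Col18a1 and Col17a1, which were lost, and of Col2a1, which was gained. Removing the trend also removes any difference in biology that follows GC content.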

How the data were processed

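Poly-A RNA of 4 eye samples was sequenced by the authors as single-end reads of 50 bases on a single lane. According to the Methods and the processing notes, reads were aligned with TopHat2 2.0.9 and Bowtie2 2.1.0 to Ensembl release 72, counted per gene with HTSeq and compared by the authors with edgeR. The deposited values used here are a signal, with fractional values and nearly equal totals; they were read as gene counts scaled to a shared library size, not as raw counts, and the strand setting and normalization are not given in the sources used here. The log2 fold change, CPM, p-value and FDR columns that the authors deposited hold their own comparison and were not used.

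Genes that reached 10 in 2 or more samples were compared on log2(value + 1) with limma 3.58.1 in R 4.3.3, with a variance prior that follows mean expression and Benjamini-Hochberg adjustment at 0.05 over 17784 genes. GC content, length and positions came from GENCODE release M21 (GRCm38), known for 98.6% of genes tested. The GC trend was removed per sample by local regression with a span of 0.3. Ratios of chains were compared by two-sided exact permutation tests. Alternatives covered scaling, pseudocounts of 0.5 and 5, filters, the variance prior, a threshold of 0.1, the replicate block and each sample left out. Promoters came from RefSeq (GRCm38.p6), matched by symbol for 35 of 44 genes.

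The members, gene lists and the rule for named genes were chosen with earlier results of these data known. Named with every sample are the called collagens, the 3 with the highest level per kilobase and the 2 with the largest fold change in each group, the chains of each pair and, of the related lists, the called genes and the 2 with the highest values. Lum, Lamb3, Col2a1 and other genes outside this rule were named after their values were seen. The replicates were pools of different animals, and with 2 samples per condition their number limits the precision. Figures were drawn with matplotlib 3.10.9.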

Additional observations from a re-analysis of the deposited data

How the results depend on the processing

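The direction of the 43 tested collagen genes was unchanged under median-ratio scaling, both pseudocounts, no filter and the common variance prior, as was that of the 39 collagens that passed a mean of at least 50. Scaling moved the median of all genes by -0.00147 (median-ratio) and 0.0233 (upper-quartile) on the log2 scale. With the GC trend removed, all genes gave 100 higher and 111 lower calls, the collagens 2 higher calls, and the lists for extracellular processing, receptors and basement membrane partners 0 calls each (2, 0 and 3 with an unadjusted p under 0.05, limma). The log2 fold changes that changed sign, with and without the block, were Col1a2 at -0.01, Col6a1 at -0.07, Col7a1 at -0.09, Col9a2 at -0.06, Col9a3 at -0.05, Col23a1 at -0.09 and Col27a1 at -0.02, none of them called. With upper-quartile scaling 443 genes were called higher and 1242 lower, 5 collagens higher and 0 lower, and 1 gene of chain modification was called, while Col5a2 moved to 0.02. With the common variance prior 0 genes were called by limma, higher or lower, among all genes, the collagens and every list, with 3586 genes and 10 collagens at an unadjusted p under 0.05. At a threshold of 0.1, 623 genes were called higher and 1972 lower, 5 collagens higher and 2 lower, 3 genes of chain modification and 2 receptors. The causes of these shifts were not tested.

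Samples are numbered 1 and 2 within each condition, no label ties a number to a shared batch, and with 2 pairs the numbers are not taken to pair the samples. Same-numbered samples deviated together from their condition means with a correlation of 0.319 across genes. With the replicate number as a block (replicate block), limma called 1282 genes higher and 2331 lower, 8 collagens higher and 3 lower, 3 genes of chain modification, 3 of extracellular processing, 2 receptors and 5 basement membrane partners. With the block and the GC trend removed together, 914 genes were called higher and 712 lower, 5 collagens higher and 3 lower, 1 gene of chain modification, 0 receptors (1 with an unadjusted p under 0.05, limma) and 4 basement membrane partners.

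When each of the samples was left out, the lone sample of a condition being assumed to vary like the others, the calls ranged from 36 to 866 higher and 604 to 1691 lower over all genes and from 2 to 11 higher and 0 to 4 lower over the collagens. They ranged from 0 to 1 for chain modification and for breakdown, 0 to 2 for extracellular processing and for receptors and 1 to 4 for basement membrane partners. The log2 fold changes that changed sign in such a fit ranged from -0.24 to 0.42 for Col1a2, -0.11 to 0.45 for Col3a1, -0.04 to 0.19 for Col4a4, -0.15 to 0.15 for Col5a2, -0.03 to 0.10 for Col6a1, -0.30 to 0.97 for Col6a5, -0.07 to 0.17 for Col7a1, -0.29 to 0.00 for Col9a1, -0.09 to 0.29 for Col9a2 and -0.09 to 0.24 for Col9a3. They also ranged from -0.05 to 0.66 for Col13a1, -0.41 to 0.17 for Col14a1, -0.21 to 0.05 for Col19a1, 0.00 to 0.02 for Col23a1 and -0.23 to 0.05 for Col26a1. The log2 differences of the chain ratios kept their sign in 8 of 10 pairs, while without single samples Col9a2 to Col9a3 ranged from -0.06 to 0.10 and Col11a1 to Col11a2 from -0.13 to 0.04. Depth is unknown, so no counting interval was given.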

Other observations

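Markers of other tissues in the pooled eyes were measured in the same samples. Of the 4 lens markers tested 0 were called (0 with an unadjusted p under 0.05, limma). Skeletal muscle markers summed to 50729 and 57714 in SD and to 48868 and 54492 in OD, and 0 of 5 were called (0 with an unadjusted p under 0.05, limma). Of the RPE markers 0 of 4 were called and of the melanocyte markers 0 of 5 (1 and 2 with an unadjusted p under 0.05, limma). With the GC trend removed, the melanocyte markers Dct (log2 fold change 0.73, limma adjusted p = 0.0211) and Tyr (0.65, limma adjusted p = 0.0393) were called higher, where before Dct had been at 0.38 and Tyr at -0.15. Among the Müller cell markers Slc1a3 (log2 fold change -0.34, limma adjusted p = 0.0166) and Aqp4 (-0.44, limma adjusted p = 0.00707) were lower in OD, and neither passed with the GC trend removed (-0.23, limma adjusted p = 0.136, and -0.10, limma adjusted p = 0.559) or without OD sample 2 (limma adjusted p = 0.083 and 0.0508), nor Slc1a3 without OD sample 1 (limma adjusted p = 0.142). Of 5 rod markers 0 were called (1 with an unadjusted p under 0.05, limma). The relation of these lists to the collagen values was not tested.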
